A study of Mus musculus with 9 samples.

Results

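The genes described here are the interleukins, tumour necrosis factor (TNF), the numbered TNF superfamily ligands and the receptors of both families, in liver RNA of Wistar rats. They were taken as the rows of the count table whose symbol starts with Il or with Tnfsf or Tnfrsf followed by a digit, or is Tnf itself. One TNF receptor row was left out beforehand, which gave 110 of the 37203 gene rows. Male rats of 180 g were the starting stock according to the labels, with 8 animals per group in the study, and 3 libraries per group were sequenced on the Ion Proton platform.

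Schisandrin B libraries come from rats given carbon tetrachloride (CCl4) for 4 weeks and then CCl4 together with daily schisandrin B, a lignan of Schisandra fruit, for another 4 weeks. Rats in the experiment got either 25 or 50 mg/kg of it daily, and which dose lies behind these 3 libraries is not stated in the labels. Fibrosis libraries come from rats given CCl4 alone, as a 50% mixture in olive oil at 2 mL/kg, 3 times a week for 8 weeks. Normal libraries come from rats given olive oil. CCl4 was thus shared by the schisandrin B and fibrosis groups and absent from the normal group, and the age of the animals is not given. Nothing in the labels says whether libraries came from separate animals or from pools, so p-values reflect library-to-library spread, which may be technical.

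Totals ran from 10320299 to 16255167 counts per library. Levels are given as counts-per-million (CPM) after TMM scaling, and 3 counts, taken as the detection floor, correspond to 0.176 to 0.286 CPM. The libraries carried liver RNA: albumin and the other hepatocyte markers were counted in all of them. Kdm5d and Eif2s3y, which are Y-linked, had 0 counts in all 3 normal libraries and 73 to 193 counts in each CCl4-treated library, although the labels describe male rats. Ddx3y, also Y-linked, had 29 counts over the schisandrin B, 54 over the fibrosis and 56 over the normal libraries, without a call by edgeR (adjusted p 0.74 in fibrosis against normal libraries). A possible difference in sex and the treatment therefore cannot be told apart in any comparison with the normal libraries. Fibrosis replicate 1 differed most from its partners, with a chi-square per degree of freedom of 98.02 and 116.46 against the 2 of them, while within-group pairs not holding it gave 15.14 to 43.7. Values without that library are given where it decides a result.

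Interleukins and TNF ligands are mostly small secreted or membrane-bound proteins that carry signals between immune cells and tissue cells. Receptors of the IL-1 family signal through Myd88 and the Irak kinases to NF-kB, many of the other interleukin receptors use Jak kinases and Stat factors, and TNF receptors recruit Traf adapters or, where they carry a death domain, can start cell death. Soluble binding proteins and decoy receptors hold several of these ligands in check. In the liver these signals are best known from Kupffer cells, lymphocytes, stellate cells and injured hepatocytes.

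Most ligands of both families were at or near the detection floor in bulk liver, and receptors made up most of what could be measured. Of the 110 members 19 had 0 counts in every library, among them Il2, Il3, Il9, Il13, Il17a, Il17f, Il22 and Il25. A count of 0 allows up to 0.286 CPM in the shallowest library. Another 39 members were counted but did not pass the filter on low counts, and 52 were tested, namely 14 of 49 ligands, 32 of 52 receptors and 6 of 9 inhibitors or decoys. The filter keeps a gene that is high in 1 group only, so the 52 are not a neutral sample of the 110. By family, 12 of 18 TNF receptors, 11 of 20 IL-1 family rows and 5 of 11 IL-17 family rows were tested, against 4 of 12 TNF ligands and none of the 6 IL-12 family rows.

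**Figure D1:**
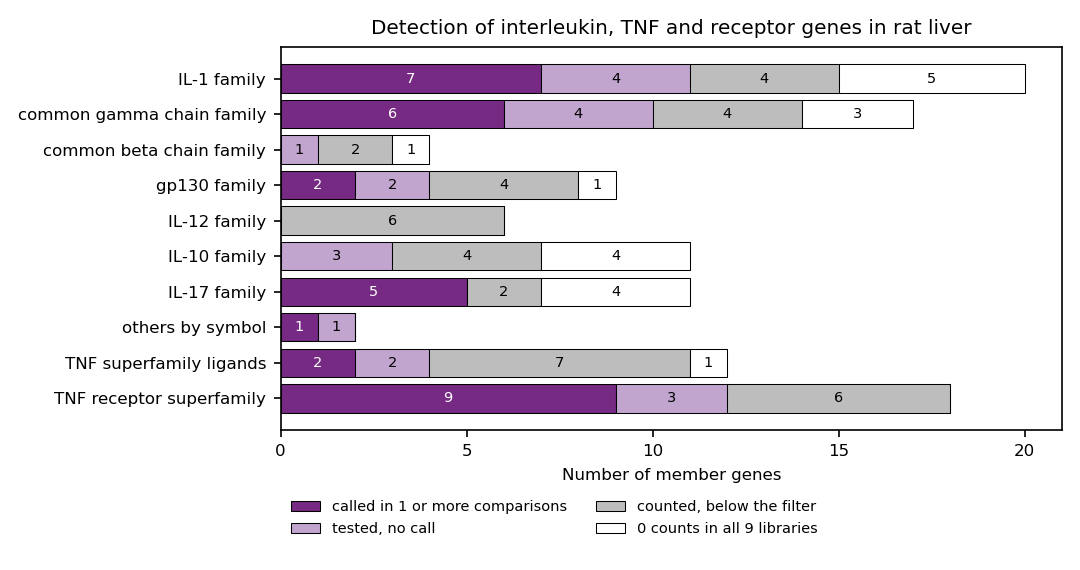
Number of member genes (x axis) in each family (y axis), split by what the counts allowed: called in 1 or more of the 3 comparisons, tested without a call, counted but below the filter, or at 0 in all 9 libraries. The TNF receptor superfamily held 9 called genes of 18 (12 tested) and the IL-1 family 7 of 20 (11 tested). In the IL-17 family all 5 tested genes were called. Of all genes tested 48.3%, 47.3% and 10.5% were called in the single comparisons. Their share called in at least 1 comparison is not given, so these counts are not read as a trait of a family.

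Tnf, Il6 and several other classic inflammatory ligands were scarce in all 3 groups, unlike Il1a and Il1b, which are described below. Tnf had 1, 0 and 0 counts in schisandrin B libraries, 1, 0 and 0 in fibrosis libraries and 2, 0 and 3 in normal libraries, which is at or under the floor throughout. Il6 was counted in a single library, fibrosis replicate 1, with 3 counts. Neither passed the filter, and a fit without it gave edgeR adjusted p of 0.369 for Tnf and 0.307 for Il6 in fibrosis against normal libraries. Il11 had 1 count, Il4 had 3, and Il12a and Il12b had between 0 and 9 counts per library. A difference in these genes was not detectable at this depth.

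Over all members the numbers called were close to what the whole table gave. A gene is called when edgeR's quasi-likelihood test gives a Benjamini-Hochberg adjusted p under 0.05 over all 14581 genes tested. In fibrosis against normal libraries 10 members were called higher and 12 lower (42.3% of 52), where the background was 48.3% of all genes tested, 25.4% higher and 22.9% lower. In schisandrin B against fibrosis libraries 12 were called higher and 14 lower (50% of 52), against a background of 47.3%, 22.5% higher and 24.8% lower. In schisandrin B against normal libraries 1 was called higher and 6 lower (13.5% of 52), against a background of 10.5%, 5.25% higher and 5.25% lower. The groups did not overlap in 26, 27 and 21 members in the same order, which is 50%, 51.9% and 40.4% of the 52, while 55.8%, 56.8% and 38.7% of all tested genes did not overlap. These shares lie near the background, so the account that follows is of single genes.

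Scaling by library totals alone, without TMM factors, moved the median gene from 0.03 to 0.46 on the log2 scale in fibrosis against normal libraries and from -0.03 to -0.30 in schisandrin B against fibrosis libraries. With it 16 members were called higher and 5 lower in fibrosis against normal libraries, 7 higher and 16 lower in schisandrin B against fibrosis libraries and 2 higher and 5 lower in schisandrin B against normal libraries. Changes are given below on the TMM scale, and genes whose call was lost with library totals are named. The first 2 comparisons share the fibrosis libraries, so their opposite signs are not independent of each other.

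**Figure D2:**
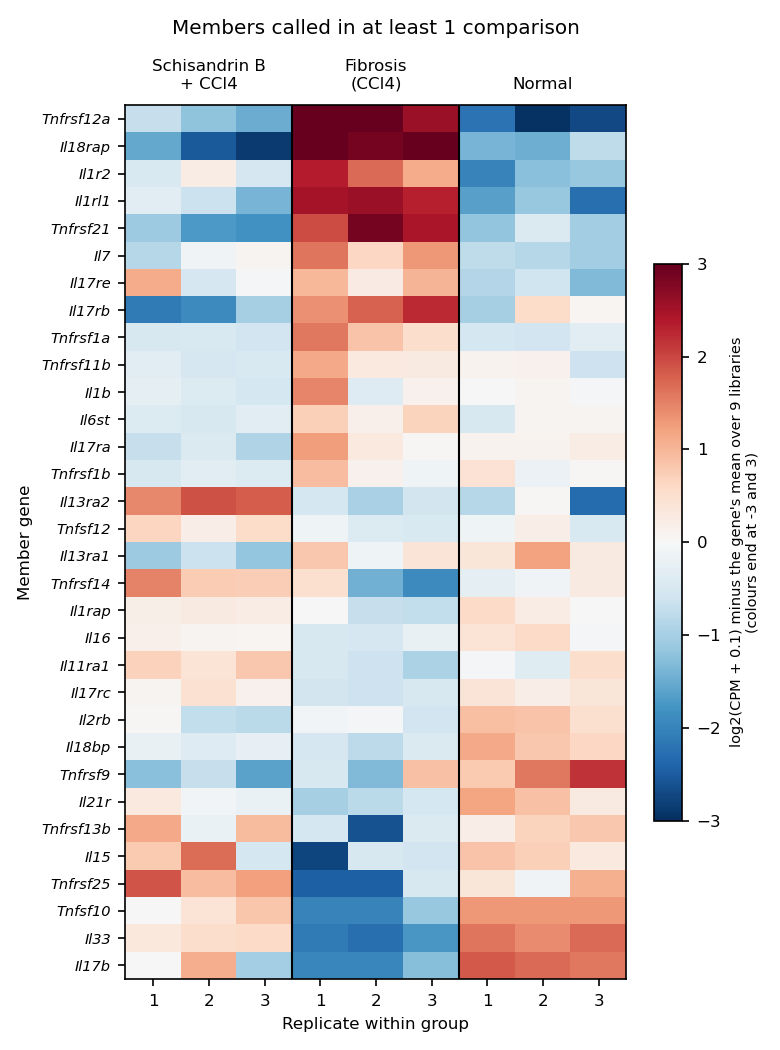
Level of the 32 members called in at least 1 comparison, as log2(CPM + 0.1) minus the gene's mean over the 9 libraries (colour), with genes in rows and the 3 schisandrin B, 3 fibrosis and 3 normal libraries in columns. Tnfrsf12a, Il18rap, Il1rl1 and Tnfrsf21 were high in all 3 fibrosis libraries, and Il33, Il17b and Tnfsf10 were low in them. Il13ra2 was high in the schisandrin B libraries.

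Among the ligands, Il33 showed a large loss in fibrosis libraries. Il33 is a nuclear alarmin of the IL-1 family that is released from damaged cells. Il33 stood at 51.1, 58.8 and 60.3 CPM in schisandrin B libraries, at 9.22, 8.39 and 12.1 CPM in fibrosis libraries and at 124, 109 and 133 CPM in normal libraries. The 3 groups did not overlap: fibrosis libraries were lowest, normal libraries highest and schisandrin B libraries between them. It fell by 3.62 ± 0.20 (SE) on the log2 scale in fibrosis against normal libraries (edgeR adjusted p 7.23e-07) and rose by 2.51 ± 0.19 in schisandrin B against fibrosis libraries (5.68e-06). With schisandrin B it was still 1.11 ± 0.18 lower than in normal libraries, a called difference (edgeR adjusted p 0.0029).

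Tnfsf10 encodes TRAIL, a TNF superfamily ligand that can trigger cell death. Its level was 4.87, 6.48 and 8.75 CPM in schisandrin B libraries, 1.13, 1.13 and 2.17 CPM in fibrosis libraries and 12.1 CPM in each of the 3 normal libraries. Here too the groups did not overlap and the order was the same as for Il33. Tnfsf10 fell by 3.00 ± 0.33 on the log2 scale in fibrosis against normal libraries (edgeR adjusted p 2.95e-05) and rose by 2.15 ± 0.33 in schisandrin B against fibrosis libraries (0.000302). Schisandrin B against normal libraries gave a difference of -0.85 ± 0.29 without a call by edgeR (adjusted p 0.0874), while the DESeq2 Wald test (0.0412), limma voom and an edgeR fit on the 2 groups called it too.

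Il17b, a member of the IL-17 family whose receptor is Il17rb, was a low-count gene. It had 3, 10 and 1 counts in schisandrin B libraries, 0, 0 and 1 in fibrosis libraries and 15, 17 and 13 in normal libraries. The pooled rate was 49.5 times lower in fibrosis than in normal libraries, with a 95% counting interval of 8.44 to 2000 (edgeR adjusted p 0.000747). It was 17 times higher in schisandrin B than in fibrosis libraries, with an interval of 2.58 to 718 (edgeR adjusted p 0.0147). Schisandrin B replicate 2 held most of these counts, and without it the second call was lost (0.104).

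Il7, a survival factor for lymphocytes, moved the other way. Il7 was at 0.477, 0.874 and 1 CPM in schisandrin B libraries, at 3.07, 1.51 and 2.46 CPM in fibrosis libraries and at 0.515, 0.473 and 0.404 CPM in normal libraries. All fibrosis libraries lay above the other 6. It rose by 2.32 ± 0.45 on the log2 scale in fibrosis against normal libraries (edgeR adjusted p 0.00137) and fell by 1.56 ± 0.43 in schisandrin B against fibrosis libraries (0.0106), a call that was lost without schisandrin B replicate 1 (0.0524).

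The IL-1 agonists and Il18 did not follow these patterns. Il1b, the main secreted IL-1, was at 9.92, 9.25 and 8.39 CPM in schisandrin B libraries, at 34.1, 9.3 and 13.4 CPM in fibrosis libraries and at 12.1, 13 and 11.8 CPM in normal libraries. Fibrosis replicate 1 alone stood apart, and the fibrosis range took in the normal one. Il1b fell by 1.04 ± 0.39 on the log2 scale in schisandrin B against fibrosis libraries with an edgeR adjusted p of 0.0482, and without fibrosis replicate 1 the difference was -0.31 with an adjusted p of 0.239. Leaving out any one schisandrin B library ended that call as well, as did DESeq2 size factors, upper-quartile factors, no filter, a mean of at least 1 CPM, limma voom and a fit on the 2 groups alone. In fibrosis against normal libraries Il1b differed by 0.62 ± 0.38 without a call (edgeR adjusted p 0.207), and leaving out fibrosis replicate 2 (0.0346) or scaling by library totals (0.0332) brought a call. Without fibrosis replicate 1 its direction turned, to -0.11.

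Il1a, an IL-1 that acts from the cell surface or on release from dying cells, was at 13.2, 19.1 and 17.3 CPM in schisandrin B libraries, at 14.5, 8.39 and 5.28 CPM in fibrosis libraries and at 7.98, 14.2 and 9.22 CPM in normal libraries. Its groups overlapped in every comparison, and the difference of 0.83 ± 0.35 on the log2 scale in schisandrin B against fibrosis libraries had an edgeR adjusted p of 0.0694, and upper-quartile factors and limma voom gave a call. Without fibrosis replicate 1 that difference was 1.28 with an adjusted p of 0.00404. Il18, an inducer of interferon gamma that is made as an inactive precursor, ranged from 1.16 to 3.34 CPM in schisandrin B libraries, from 0.907 to 2.43 CPM in fibrosis libraries and from 0.889 to 2.66 CPM in normal libraries, without a call.

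Il10, an anti-inflammatory cytokine, had 8, 8 and 3 counts in schisandrin B libraries, 25, 4 and 3 in fibrosis libraries and 10, 13 and 13 in normal libraries. Fibrosis replicate 1 was the highest library and the other 2 fibrosis libraries were under all normal ones. The difference in fibrosis against normal libraries was -0.21 ± 0.74 on the log2 scale (edgeR adjusted p 0.836), and without fibrosis replicate 1 it was -1.94 with an adjusted p of 0.0267. Its direction in fibrosis against normal libraries also turned with library totals, and those of Il18 and Il1a did so too.

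Among the other tested ligands, Tnfsf12, which encodes the Tnfrsf12a ligand TWEAK, was called higher in schisandrin B than in fibrosis libraries with a log2 change of 0.81 ± 0.23, and Il15, a growth factor of NK cells, with 2.17 ± 0.77. Both calls were lost with library totals (0.0903 and 0.07), and that of Il15 also with limma voom and without schisandrin B replicate 1 (0.0607) or 2 (0.21) or any one fibrosis library. Il16, a chemoattractant for CD4+ cells, was called lower in fibrosis than in normal libraries at -0.75 ± 0.25, a call lost with library totals (0.377), with no filter, in a fit on the 2 groups, and without fibrosis replicate 2 (0.0715) or normal replicate 1 (0.0668) or 2 (0.0957). Il34, which binds the receptor of the macrophage growth factor Csf1, and Tnfsf13 and Tnfsf13b, which act on B cells, were called in none of the comparisons by edgeR. Reads of Tnfsf12 and Tnfsf13 may be shared, since these genes are neighbours with known read-through transcripts in humans.

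Il23a and Il27 did not pass the filter on low counts, and they are named after their values were seen. Il23a, the p19 chain of IL-23, had 0, 2 and 1 counts in schisandrin B libraries, 9, 88 and 97 in fibrosis libraries and 1, 2 and 3 in normal libraries. Il27, the p28 chain of IL-27, had 2, 2 and 3 counts in schisandrin B libraries, 78, 34 and 9 in fibrosis libraries and 4, 9 and 7 in normal libraries. Fibrosis libraries were above all others for Il23a, while the lowest fibrosis count of Il27 equalled the highest normal one. In a fit without the filter edgeR gave Il23a an adjusted p of 0.000261 in fibrosis against normal libraries and 0.000166 in schisandrin B against fibrosis libraries, and gave Il27 0.00727 and 0.000882. Of the other members that did not pass the filter the same fit called Il5ra and Il22ra1 higher and Tnfrsf13c lower in fibrosis than in normal libraries, and Il5ra and Il9r lower in schisandrin B than in fibrosis libraries, from 16, 23, 27 and 46 counts in total for Il5ra, Il22ra1, Tnfrsf13c and Il9r. Among fibrosis libraries replicate 1 held the most Il27 and the least Il23a.

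**Figure D3:**
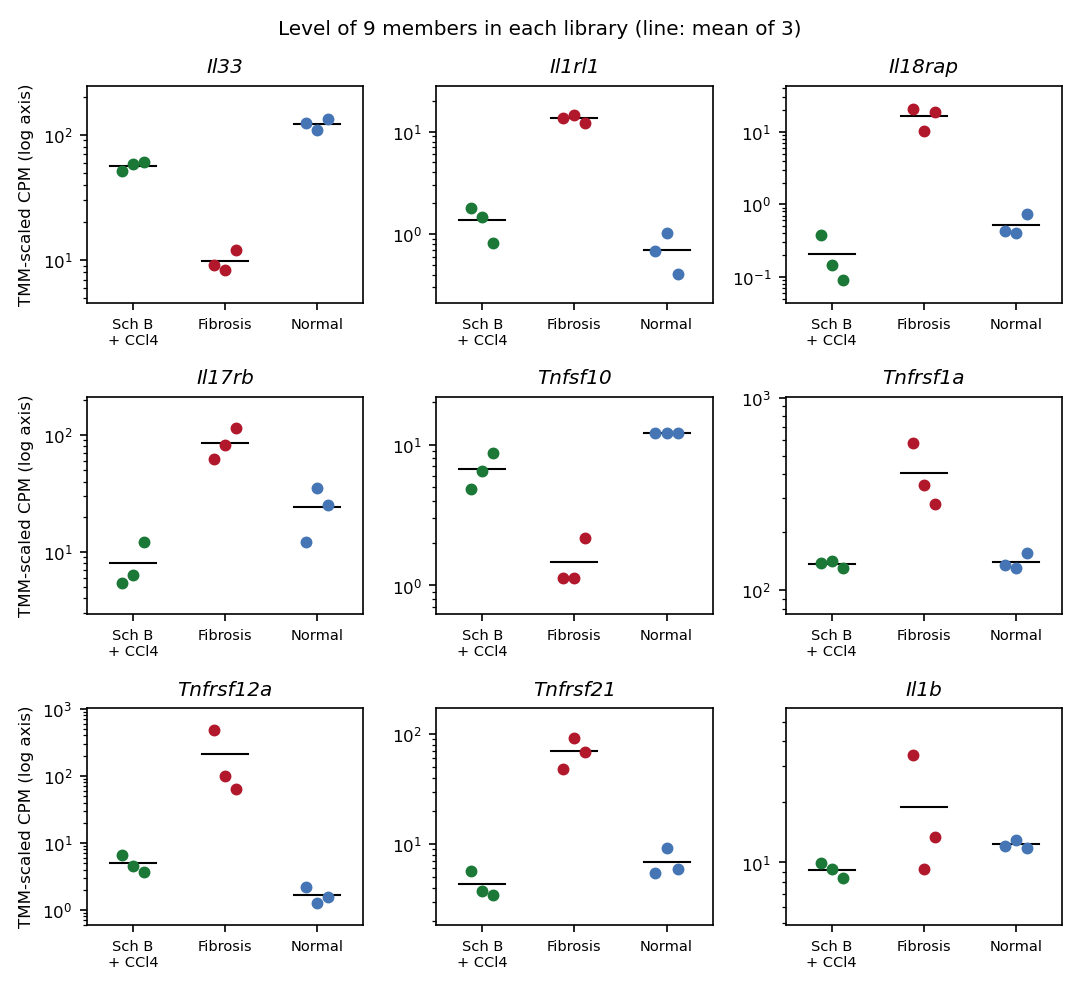
TMM-scaled CPM on log axes for 9 members, with 1 point per library and a line at the mean of 3, in schisandrin B, fibrosis and normal libraries. Il33 and Tnfsf10 were lowest in fibrosis libraries, and Il1rl1, Il18rap, Il17rb, Tnfrsf1a, Tnfrsf12a and Tnfrsf21 were highest in them. For Il1b only fibrosis replicate 1, at 34.1 CPM, stood apart.

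Within the IL-1 receptor family some genes rose and others fell in fibrosis libraries. Il1rl1, also called ST2, is the receptor for Il33, and its soluble form can act as a decoy. Il1rl1 was at 1.81, 1.46 and 0.821 CPM in schisandrin B libraries, at 13.7, 14.6 and 12.1 CPM in fibrosis libraries and at 0.686, 1.01 and 0.404 CPM in normal libraries. Every fibrosis library exceeded the other 6. It rose by 4.22 ± 0.37 on the log2 scale in fibrosis against normal libraries (edgeR adjusted p 8.96e-06) and fell by 3.29 ± 0.35 in schisandrin B against fibrosis libraries (3.23e-05). Ligand and receptor of this pair therefore had opposite signs in both comparisons. The gene counts do not separate the membrane form of Il1rl1 from the soluble one.

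Il18rap is the accessory chain of the Il18 receptor. Its level was 0.382, 0.146 and 0.0912 CPM in schisandrin B libraries, 20.6, 10.2 and 19.1 CPM in fibrosis libraries and 0.429, 0.406 and 0.728 CPM in normal libraries. Fibrosis libraries held 135 to 326 counts, against 1 to 4 in schisandrin B and 5 to 9 in normal libraries. It rose by 4.98 ± 0.43 on the log2 scale in fibrosis against normal libraries (edgeR adjusted p 7.76e-06) and fell by 6.31 ± 0.49 in schisandrin B against fibrosis libraries (6.24e-06). Il18r1, the ligand-binding chain of the same receptor, had 1 to 5 counts in every library and was not tested. T and NK cells are a known source of the receptor. Of their 9 tested markers 8 were called lower in fibrosis than in normal libraries (2 with library totals), where 22.9% of all tested genes were. The summed level of the 14 markers ranged from 73.8 to 105 CPM in schisandrin B, from 56.5 to 103 CPM in fibrosis and from 114 to 160 CPM in normal libraries. Cd4, the 1 tested marker without a call, made up most of it, and the other 13 markers, summed after these values were seen, came to 17 to 22.5 CPM in schisandrin B, 8.77 to 14 CPM in fibrosis and 26.8 to 39.7 CPM in normal libraries. Among 5 tested neutrophil markers 2 were called higher in fibrosis than in normal libraries and 4 lower in schisandrin B than in fibrosis libraries. The part of T and NK cells and of neutrophils in the result was not tested.

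The signalling chains of the IL-1 receptor changed less. Il1rap, the accessory chain shared by the receptors for IL-1 and Il33, was at 41.9, 44.7 and 43.7 CPM in schisandrin B libraries, at 36.9, 23 and 22.3 CPM in fibrosis libraries and at 55.4, 43.8 and 37.3 CPM in normal libraries. Fibrosis libraries were the lowest, with 36.9 CPM in fibrosis replicate 1 close to the lowest normal library. It fell by 0.73 ± 0.22 on the log2 scale in fibrosis against normal libraries (edgeR adjusted p 0.0172) and rose by 0.67 ± 0.22 in schisandrin B against fibrosis libraries (0.0277). Both calls were lost with library totals (0.2 and 0.114). The first was also lost without fibrosis replicate 2 or 3 or normal replicate 1, with an adjusted p of up to 0.0743, and the second without fibrosis replicate 2 or 3 or schisandrin B replicate 2 or 3, with one of up to 0.0953.

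Il1r1, the signalling receptor for IL-1, was at 129, 111 and 123 CPM in schisandrin B libraries, at 55.7, 163 and 252 CPM in fibrosis libraries and at 128, 118 and 123 CPM in normal libraries. Fibrosis replicate 1 was under all other libraries and fibrosis replicates 2 and 3 were above them. The difference in fibrosis against normal libraries was 0.35 ± 0.40 on the log2 scale (edgeR adjusted p 0.498). Without fibrosis replicate 1 it was 0.75 with an adjusted p of 0.0065, and in schisandrin B against fibrosis libraries it was then -0.79 with an adjusted p of 0.00524.

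The inhibitors and decoys of this family did not move together. Il1r2, a decoy receptor for IL-1, had 2, 5 and 2 counts in schisandrin B libraries, 24, 16 and 13 in fibrosis libraries and 0, 1 and 1 in normal libraries. Its pooled rate was 24.1 times higher in fibrosis than in normal libraries, with a 95% counting interval of 6.35 to 204 (edgeR adjusted p 0.000571), and it fell by 2.31 ± 0.60 on the log2 scale in schisandrin B against fibrosis libraries (edgeR adjusted p 0.00766). Neutrophils are a known source of Il1r2. Of 5 tested neutrophil markers 2 were called higher in fibrosis than in normal libraries, against a background of 25.4%. In schisandrin B against fibrosis libraries 4 of 5 were called lower, against 24.8%. The summed level of the 7 neutrophil markers was 11.9 to 15.8 CPM in schisandrin B, 22.1 to 32.5 CPM in fibrosis and 19.6 to 25.2 CPM in normal libraries, with Elane at 0 counts in all schisandrin B and fibrosis libraries. Ncf1 made up most of the normal sums, at 13.9 to 15 CPM, and was lower in every fibrosis library, at 5.37 to 12.6 CPM, without a call. S100a8, S100a9, Csf3r and Cxcr2 were each higher in every fibrosis library than in every normal one. The part of neutrophils in the result was not tested. In bulk RNA a change in the number of cells of a type cannot be told apart from a change in RNA per cell.

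Il18bp, the soluble inhibitor of Il18, was at 18, 16.2 and 17.8 CPM in schisandrin B libraries, at 14.8, 12.1 and 15.6 CPM in fibrosis libraries and at 46.2, 37.2 and 32.3 CPM in normal libraries. Both CCl4 groups lay under all normal libraries. It was lower than in normal libraries by 1.44 ± 0.19 on the log2 scale in fibrosis, where it fell (edgeR adjusted p 8.68e-05), and it also fell by 1.15 ± 0.18 in schisandrin B against normal libraries (0.00283). Schisandrin B and fibrosis libraries differed by 0.29 ± 0.18 without a call (edgeR adjusted p 0.219).

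Il1rn, the IL-1 receptor antagonist, was at 39.3, 26.1 and 24.1 CPM in schisandrin B libraries, at 44.5, 34 and 85.6 CPM in fibrosis libraries and at 26.4, 34.7 and 44.8 CPM in normal libraries. The groups overlapped. edgeR gave an adjusted p of 0.145 in fibrosis against normal and of 0.0539 in schisandrin B against fibrosis libraries, where the change was -0.88 ± 0.34 on the log2 scale. The second value passed the threshold with the DESeq2 Wald test (0.0363), with library totals (0.0282), and without schisandrin B replicate 1 or fibrosis replicate 2, while its adjusted p over the omitted libraries ranged from 0.0158 to 0.254. The first, for a log2 difference of 0.63, passed it with library totals (0.0335) and without fibrosis replicate 2 (0.0457).

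The receptors of the IL-17 family were measurable although Il17a, Il17c and Il17f had 0 counts throughout. Il17rb, which binds Il17b and Il25, was at 5.44, 6.33 and 12 CPM in schisandrin B libraries, at 62.2, 82.5 and 114 CPM in fibrosis libraries and at 12, 35.1 and 25.1 CPM in normal libraries. All fibrosis libraries were above the rest, and schisandrin B libraries were under the normal ones except that replicate 3 reached the lowest of them. Il17rb rose by 1.84 ± 0.41 on the log2 scale in fibrosis against normal libraries (edgeR adjusted p 0.00416) and fell by 3.44 ± 0.44 in schisandrin B against fibrosis libraries (0.000177). Against normal libraries schisandrin B libraries were also called lower, at -1.61 ± 0.42 (edgeR adjusted p 0.038), a call lost with library totals (0.0633), with no filter, in a fit on the 2 groups and without schisandrin B replicate 1 or 2 or normal replicate 2 or 3, with an adjusted p of up to 0.13. Of the 2 ligands Il25 had 0 counts in all libraries, and Il17b, described above, was lowest where Il17rb was highest.

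Il17ra, the chain shared by most IL-17 receptors, was at 46.9, 55.8 and 40.4 CPM in schisandrin B libraries, at 179, 91.7 and 77.6 CPM in fibrosis libraries and at 81, 80.5 and 87.6 CPM in normal libraries. Schisandrin B libraries were under all others, and fibrosis replicate 1 was the highest. It fell by 1.28 ± 0.28 on the log2 scale in schisandrin B against fibrosis libraries (edgeR adjusted p 0.0029), and the difference of 0.48 ± 0.27 in fibrosis against normal libraries was not called (0.169) except with library totals (0.00842) and without fibrosis replicate 3 (0.0443).

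Il17rc, the partner of Il17ra for Il17a and Il17f, ran against these: it was at 11.7, 15.1 and 12.1 CPM in schisandrin B libraries, at 7.44, 7.1 and 7.86 CPM in fibrosis libraries and at 14.4, 12.7 and 14.1 CPM in normal libraries. Fibrosis libraries lay under all others. Il17rc fell by 0.88 ± 0.19 on the log2 scale in fibrosis against normal libraries (edgeR adjusted p 0.00258) and rose by 0.80 ± 0.19 in schisandrin B against fibrosis libraries (0.00469), and both calls were lost with library totals (0.0993 and 0.0605). Il17re, which pairs with Il17ra to bind Il17c, was called higher in fibrosis than in normal libraries at 1.99 ± 0.61 from 2 to 21 counts per library, a call lost without fibrosis replicate 3 (0.0544) or normal replicate 1 (0.0529) or 3 (0.0667).

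Il6st encodes gp130, the signalling chain for Il6, Il11 and related cytokines. It was at 220, 209 and 233 CPM in schisandrin B libraries, at 482, 326 and 468 CPM in fibrosis libraries and at 210, 312 and 310 CPM in normal libraries. Fibrosis libraries were the highest, although 326 CPM lay close to the upper normal values. Il6st fell by 0.95 ± 0.22 on the log2 scale in schisandrin B against fibrosis libraries (edgeR adjusted p 0.0045). The rise of 0.62 ± 0.22 in fibrosis against normal libraries had an edgeR adjusted p of 0.0373. Its call was lost with upper-quartile scaling, in a fit on the 2 groups and without fibrosis replicate 1 or 3 or any one normal library, with an adjusted p of up to 0.146.

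Il6r, which binds Il6, was at 182, 180 and 188 CPM in schisandrin B libraries, at 196, 61.2 and 95.1 CPM in fibrosis libraries and at 145, 183 and 185 CPM in normal libraries. Fibrosis replicate 1 was the highest library and the other 2 fibrosis libraries were the lowest. Neither comparison with fibrosis was called (edgeR adjusted p 0.204 and 0.14). Without fibrosis replicate 1 Il6r was 1.13 lower on the log2 scale in fibrosis than in normal libraries (adjusted p 0.000934) and 1.22 higher in schisandrin B than in fibrosis libraries (0.000578).

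Il11ra1, the receptor for Il11, was at 50.6, 41.4 and 55.1 CPM in schisandrin B libraries, at 22.3, 20.2 and 16 CPM in fibrosis libraries and at 30.5, 24.3 and 45 CPM in normal libraries. Fibrosis libraries lay under all others. It rose by 1.33 ± 0.24 on the log2 scale in schisandrin B against fibrosis libraries (edgeR adjusted p 0.000848). It fell by 0.77 ± 0.24 in fibrosis against normal libraries (edgeR adjusted p 0.0181), a call lost with library totals (0.199) and without fibrosis replicate 3 or normal replicate 3, with an adjusted p of up to 0.0925.

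The 2 receptors for Il13 changed in opposite directions with schisandrin B. Il13ra1, the signalling chain, was at 2.67, 3.71 and 2.55 CPM in schisandrin B libraries, at 10.3, 5.29 and 7.62 CPM in fibrosis libraries and at 7.55, 13.7 and 7.03 CPM in normal libraries. Schisandrin B libraries were under all others, and fibrosis and normal libraries overlapped. It fell by 1.37 ± 0.35 on the log2 scale in schisandrin B against fibrosis libraries (edgeR adjusted p 0.00736) and by 1.65 ± 0.35 in schisandrin B against normal libraries (0.0128).

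Il13ra2, a high-affinity decoy for Il13, was at 1.24, 1.75 and 1.64 CPM in schisandrin B libraries, at 0.243, 0.151 and 0.235 CPM in fibrosis libraries and at 0.172, 0.406 and 0 CPM in normal libraries. It had 13 to 24 counts per schisandrin B library and 0 to 6 in the others. Il13ra2 rose by 2.82 ± 0.65 on the log2 scale in schisandrin B against fibrosis libraries (edgeR adjusted p 0.00401), and it was the 1 member called higher in schisandrin B than in normal libraries (2.88 ± 0.66, edgeR adjusted p 0.0185). The calls against normal libraries were not firm: that of Il13ra1 was lost without schisandrin B replicate 1 or 3 or normal replicate 2, and that of Il13ra2 without schisandrin B replicate 2 or 3 or normal replicate 1, with adjusted p of up to 0.0636 and 0.0732. Il13 itself had 0 counts in all libraries.

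Il2rb, a signalling chain for Il2 and Il15 on T and NK cells, was at 6.3, 3.64 and 3.46 CPM in schisandrin B libraries, at 5.82, 5.89 and 4.1 CPM in fibrosis libraries and at 11.5, 11.3 and 8.57 CPM in normal libraries. All 6 CCl4 libraries lay under the normal ones. It fell by 0.99 ± 0.29 on the log2 scale in fibrosis against normal libraries (edgeR adjusted p 0.0142) and by 1.23 ± 0.29 in schisandrin B against normal libraries (0.022). The first call was lost with library totals (0.127) and without fibrosis replicate 3 (0.0519), and the second without schisandrin B replicate 2 or 3 or normal replicate 1 or 2, with an adjusted p of up to 0.101.

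Of the 9 tested T and NK cell markers 8 were called lower in fibrosis than in normal libraries, as Il2rb was. In schisandrin B against normal libraries 2 were. The background called lower was 22.9% and 5.25% in the same order. The part of T and NK cells in the result was not tested. Il21r, a further lymphocyte receptor, was called lower in fibrosis than in normal libraries at -1.67 ± 0.39, while Il2rg, the chain these receptors share, Il7r and Il4r were not called by edgeR in any comparison. Il4r, the receptor chain for Il4 and Il13, ranged from 152 to 196 CPM in schisandrin B, from 167 to 318 CPM in fibrosis and from 155 to 187 CPM in normal libraries.

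**Figure D4:**
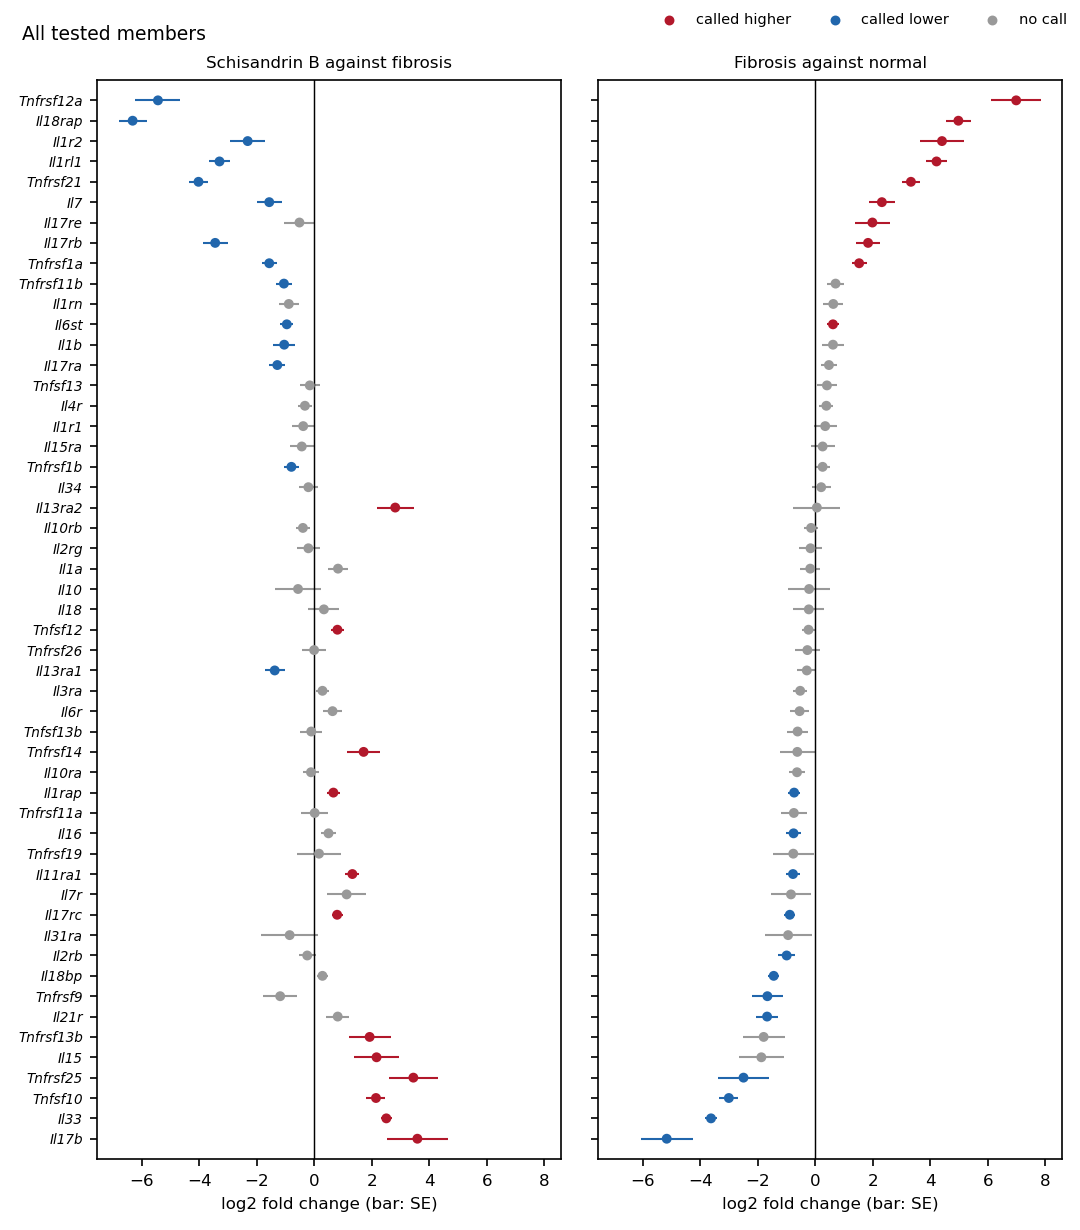
log2 fold change with its SE (x axis) of all 52 tested members (y axis, ordered by the change in fibrosis against normal libraries), for schisandrin B against fibrosis on the left and fibrosis against normal on the right. Red marks genes called higher, blue genes called lower and grey genes without a call. The panels share the fibrosis libraries. Tnfrsf12a had a log2 change of -5.43 on the left and 6.99 on the right, and Il33 one of 2.51 and -3.62.

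TNF receptors held the largest rise of all members in fibrosis against normal libraries. Tnfrsf12a, also called Fn14, is the receptor for TWEAK and is induced by injury in many tissues. Tnfrsf12a was at 6.58, 4.59 and 3.74 CPM in schisandrin B libraries, at 478, 98.5 and 64.6 CPM in fibrosis libraries and at 2.23, 1.28 and 1.54 CPM in normal libraries. Fibrosis libraries were far above all others, with fibrosis replicate 1 highest. It rose by 6.99 ± 0.86 on the log2 scale in fibrosis against normal libraries (edgeR adjusted p 0.000167) and fell by 5.43 ± 0.78 in schisandrin B against fibrosis libraries (0.000458). Without fibrosis replicate 1 the changes were 5.61 and -4.04, with adjusted p of 1.91e-07 and 1.12e-06. Schisandrin B libraries lay above all normal libraries, a difference of 1.57 ± 0.78 without a call (edgeR adjusted p 0.24) except in a fit on the 2 groups alone.

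Tnfrsf21, the death domain receptor DR6, was at 5.73, 3.71 and 3.46 CPM in schisandrin B libraries, at 48.2, 91.4 and 68.7 CPM in fibrosis libraries and at 5.4, 9.2 and 5.98 CPM in normal libraries. Here fibrosis replicate 1 was the lowest of the fibrosis libraries, and all 3 exceeded the other 6 libraries. It rose by 3.33 ± 0.30 on the log2 scale in fibrosis against normal libraries (edgeR adjusted p 1.03e-05) and fell by 4.02 ± 0.32 in schisandrin B against fibrosis libraries (6.87e-06).

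Tnfrsf1a, the death domain receptor for TNF that most cells carry, was at 139, 142 and 130 CPM in schisandrin B libraries, at 584, 351 and 279 CPM in fibrosis libraries and at 135, 130 and 156 CPM in normal libraries. Fibrosis libraries were again above all others, while schisandrin B and normal libraries overlapped. It rose by 1.53 ± 0.26 on the log2 scale in fibrosis against normal libraries (edgeR adjusted p 0.000514) and fell by 1.56 ± 0.26 in schisandrin B against fibrosis libraries (0.000492). Schisandrin B and normal libraries differed by -0.03 ± 0.25 (edgeR adjusted p 0.952).

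Tnfrsf1b, the TNF receptor found mainly on leukocytes and endothelium, was at 24, 26.4 and 25 CPM in schisandrin B libraries, at 64.1, 36.3 and 30.6 CPM in fibrosis libraries and at 45.4, 29.8 and 34.2 CPM in normal libraries. Schisandrin B libraries were under all others, and fibrosis and normal libraries overlapped. It fell by 0.79 ± 0.26 on the log2 scale in schisandrin B against fibrosis libraries (edgeR adjusted p 0.0278), and the call was lost with upper-quartile scaling, without fibrosis replicate 1 (-0.41, 0.0892) and without any one schisandrin B library, with an adjusted p of up to 0.0997. In fibrosis against normal libraries the difference was 0.26 ± 0.26 (edgeR adjusted p 0.437), and library totals brought a call (0.0307).

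Tnfrsf9, the T cell co-stimulator 4-1BB, was at 0.954, 1.46 and 0.729 CPM in schisandrin B libraries, at 1.7, 0.907 and 4.52 CPM in fibrosis libraries and at 4.29, 7.44 and 11.2 CPM in normal libraries. Normal libraries were the highest except that fibrosis replicate 3 reached into their range. It fell by 2.84 ± 0.59 on the log2 scale in schisandrin B against normal libraries (edgeR adjusted p 0.0117) and by 1.66 ± 0.53 in fibrosis against normal libraries (0.0237). The second call was lost with library totals (0.105) and without fibrosis replicate 1 or 2 or normal replicate 2 or 3, with an adjusted p of up to 0.0992, and the first without schisandrin B replicate 1 or 3, with one of up to 0.0609.

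Tnfrsf25, the death receptor DR3 of T cells, had 20, 13 and 13 counts in schisandrin B libraries, 0, 0 and 5 in fibrosis libraries and 7, 6 and 13 in normal libraries. Fibrosis libraries were under all others. It rose by 3.45 ± 0.84 on the log2 scale in schisandrin B against fibrosis libraries (edgeR adjusted p 0.00534). It fell by 2.49 ± 0.88 in fibrosis against normal libraries (edgeR adjusted p 0.0352), a call lost with library totals (0.083), without fibrosis replicate 1 (0.0778) or 2, without normal replicate 1 (0.063) and without normal replicate 3. A further pair of members with low counts were called higher in schisandrin B than in fibrosis libraries, Tnfrsf14, the receptor for LIGHT, at 1.72 ± 0.58 and Tnfrsf13b, the B cell receptor TACI, at 1.93 ± 0.73. The call of Tnfrsf14 was lost in a fit on the 2 groups and without schisandrin B replicate 1 (0.0966) or fibrosis replicate 2 (0.0954) or 3 (0.0862). That of Tnfrsf13b was lost with library totals (0.0878), with no filter, and without schisandrin B replicate 1 or 3 or any one fibrosis library, with an adjusted p of up to 0.129. Tnfrsf11b, which encodes the soluble decoy osteoprotegerin, was called lower in that comparison at -1.05 ± 0.29, and Tnfsf11, the ligand it binds, had 0 counts in all libraries.

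Of 39 tested genes of TNF and IL-1 signal transduction to NF-kB 18 were called higher and 2 lower in fibrosis than in normal libraries. That is 51.3% called, where the background was 48.3%, 25.4% higher and 22.9% lower. The median log2 change was 0.60, beside 0.03 for all tested genes. With library totals 28 were higher and 0 lower by edgeR, and with upper-quartile factors 17 and 3. In schisandrin B against fibrosis libraries 24 were called lower and 1 higher (28 and 0 with library totals). That is 64.1% against a background of 47.3%, 22.5% higher and 24.8% lower. The median was -0.76 beside -0.03 for all tested genes. Upper-quartile factors gave 18 lower and 1 higher there, with a median of -0.62. Leaving out a single library ended some calls in both comparisons, among them those of Ikbkb, Irak1 and Map3k7. In schisandrin B against fibrosis libraries it also ended those of Chuk, Cflar, Irak2, Irak4, Map3k14, Tollip, Traf1 and Traf6. Schisandrin B against normal libraries gave 1 higher and 5 lower, 15.4% against a background of 10.5%, 5.25% higher and 5.25% lower. Leaving out a single library ended the 1 higher call and the lower calls of Irak4, Nfkbie, Ripk1 and Traf1. Those of Irak4 and Ripk1 were also lost with library totals (edgeR adjusted p 0.0631 and 0.147).

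The subunits of NF-kB itself were among them. Rela, the main activating subunit, was at 53.1, 47.8 and 44.9 CPM in schisandrin B libraries, at 137, 116 and 112 CPM in fibrosis libraries and at 53.3, 53.7 and 52.3 CPM in normal libraries. Nfkb2, a subunit of the non-canonical pathway, was at 11.4, 13.8 and 8.93 CPM in schisandrin B libraries, at 38.1, 35.3 and 40.8 CPM in fibrosis libraries and at 13.8, 17.8 and 13.2 CPM in normal libraries. For both genes the fibrosis libraries were above all others. Rela rose by 1.20 ± 0.15 on the log2 scale in fibrosis against normal libraries (edgeR adjusted p 8.96e-05) and fell by 1.33 ± 0.16 in schisandrin B against fibrosis libraries (5.65e-05), and Nfkb2 had changes of 1.35 ± 0.20 (0.000225) and -1.74 ± 0.20 (5.53e-05). Relb rose by 1.96 and fell by 1.93 in the same order.

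Irak3, a kinase-like protein that dampens IL-1 receptor signalling, was at 7.16, 2.99 and 6.66 CPM in schisandrin B libraries, at 30.9, 32.7 and 58.1 CPM in fibrosis libraries and at 4.55, 7.1 and 3.48 CPM in normal libraries. It rose by 3.00 ± 0.39 on the log2 scale in fibrosis against normal libraries (edgeR adjusted p 0.000115) and fell by 2.87 ± 0.39 in schisandrin B against fibrosis libraries (0.000169). Traf3, an adapter that restrains the non-canonical pathway, rose by 1.64 and fell by 1.05 in the same order. The list thus held both activators and inhibitors of the pathway among its called genes. Myd88, the adapter of IL-1 receptors, ran against them: it fell by 0.54 in fibrosis against normal libraries and rose by 0.55 in schisandrin B against fibrosis libraries. Both calls of Myd88 were lost with library totals (0.706 and 0.295), with no filter and without fibrosis replicate 1 (0.056 and 0.0548), the first also without normal replicate 1 or 3 and the second without schisandrin B replicate 1 or 3.

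**Figure D5:**
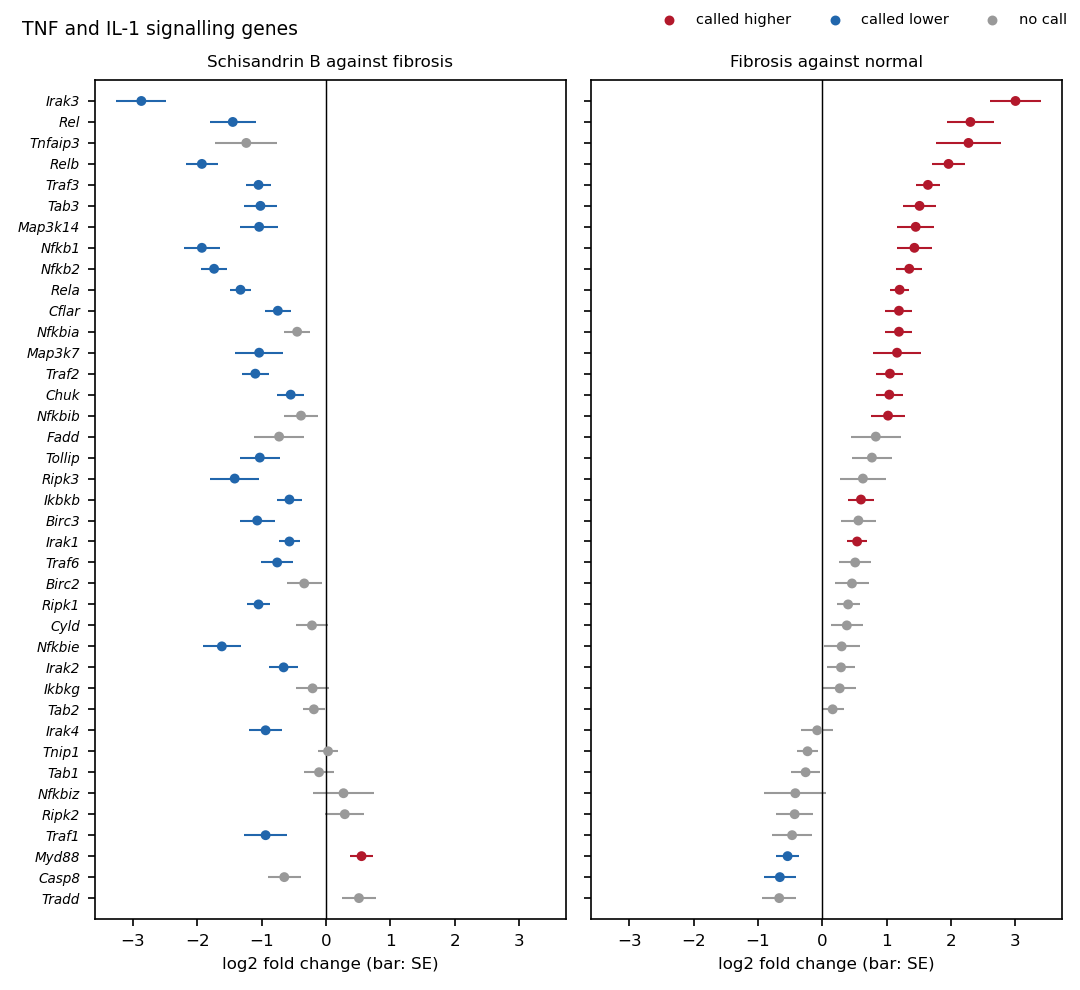
log2 fold change with its SE (x axis) of the 39 tested genes of TNF and IL-1 signal transduction (y axis, ordered by the change in fibrosis against normal libraries), for schisandrin B against fibrosis on the left and fibrosis against normal on the right, which share the fibrosis libraries. Red, blue and grey mark genes called higher, called lower and without a call. Of the 39 genes 24 were called lower on the left and 18 called higher on the right, where 24.8% and 25.4% of all tested genes were.

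Of 24 tested genes of Jak and Stat signalling 6 were called higher and 6 lower in fibrosis than in normal libraries (9 and 4 with library totals), 50% against a background of 48.3%, with a median log2 change of -0.10. In schisandrin B against fibrosis libraries 4 were called higher and 10 lower (3 and 12 with library totals). That is 58.3% against a background of 47.3%, with a median of -0.29. In schisandrin B against normal libraries 2 of 24 were called lower, 8.33% against 10.5%. Leaving out a single library ended both of these last calls. It also ended some calls in the first 2 comparisons, among them those of Jak3 and Pias2 in schisandrin B against fibrosis libraries. Stat2, which carries interferon signals, and the kinase Tyk2 fell by 1.61 and 1.19 in fibrosis against normal libraries and rose by 1.57 and 1.14 in schisandrin B against fibrosis libraries. Stat3, which carries gp130 signals, went the other way. It was at 155, 107 and 125 CPM in schisandrin B libraries, at 350, 256 and 260 CPM in fibrosis libraries and at 199, 149 and 193 CPM in normal libraries. All fibrosis libraries were above the rest. It rose by 0.68 ± 0.21 in fibrosis against normal libraries (edgeR adjusted p 0.0204, and 0.0881 without normal replicate 2) and fell by 1.16 ± 0.21 in schisandrin B against fibrosis libraries (0.00106).

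Of 9 tested genes that process these ligands 2 were called higher and 2 lower in fibrosis than in normal libraries, and 1 higher and 2 lower in schisandrin B than in fibrosis libraries, which is 44.4% and 33.3% called against backgrounds of 48.3% and 47.3%. Leaving out fibrosis replicate 1 changed these counts to 2 and 6, and to 3 and 2. Rhbdf2, which encodes iRhom2, a partner of the TNF-releasing protease Adam17, was at 9.26, 5.82 and 6.66 CPM in schisandrin B libraries, at 51.5, 43.8 and 32.8 CPM in fibrosis libraries and at 8.49, 10.9 and 8.25 CPM in normal libraries. It rose by 2.21 ± 0.24 on the log2 scale in fibrosis against normal libraries (edgeR adjusted p 2.68e-05) and fell by 2.56 ± 0.24 in schisandrin B against fibrosis libraries (1.72e-05). Casp4, an inflammatory caspase, rose by 3.87 and fell by 2.57 in the same order, while Gsdmd, the pore protein it cleaves, fell by 1.64 and rose by 0.83, the second call being lost with library totals (0.0621). In the fit to all 9 libraries Nlrp3, Casp1 and Adam17 were not called in any comparison by edgeR, with adjusted p of 0.102 to 0.883. The 6 genes called lower without fibrosis replicate 1 took in genes of this list that had no call in that fit. Nlrp3, Casp1 and Adam17 are therefore not shown to be unchanged.

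Of 16 tested relatives of these families under other symbols 4 were called higher and 3 lower in fibrosis than in normal libraries (8 and 3 with library totals), 3 higher and 6 lower in schisandrin B than in fibrosis libraries, and 4 lower when schisandrin B libraries were set against normal ones. These are 43.8%, 56.2% and 25% of the 16, against backgrounds of 48.3%, 47.3% and 10.5%. Among gp130 partners, Lifr, the receptor for leukaemia inhibitory factor, was at 23.3, 24.8 and 21.2 CPM in schisandrin B libraries, at 58.9, 25.5 and 41.2 CPM in fibrosis libraries and at 1460, 532 and 1070 CPM in normal libraries. Both CCl4 groups were far under the normal libraries. It fell by 5.47 ± 0.44 on the log2 scale in schisandrin B against normal libraries (edgeR adjusted p 3.32e-05) and by 4.61 ± 0.42 in fibrosis against normal libraries (1.21e-05), in libraries that also differed in Y-linked transcripts.

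Osmr, the receptor chain for oncostatin M, was at 5.25, 2.84 and 3.37 CPM in schisandrin B libraries, at 52.9, 58.5 and 76.9 CPM in fibrosis libraries and at 46.7, 23.9 and 36.6 CPM in normal libraries. Schisandrin B libraries lay far under both other groups. It fell by 4.05 ± 0.32 on the log2 scale in schisandrin B against fibrosis libraries (edgeR adjusted p 6.24e-06) and by 3.23 ± 0.31 in schisandrin B against normal libraries (8.17e-05). Clcf1, a cytokine of the same group, rose by 3.99 in fibrosis against normal libraries and fell by 2.90 in schisandrin B against fibrosis libraries. Edar, a TNF receptor known from skin appendages, fell by 2.80 and rose by 2.57 in the same order.

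Markers of other cell types moved with some of these results and against others. Of all genes tested 25.4% were called higher and 22.9% lower in fibrosis against normal libraries. The background in schisandrin B against fibrosis libraries was 22.5% higher and 24.8% lower. Of 7 endothelial markers 4 were called lower in fibrosis than in normal libraries and 3 higher in schisandrin B than in fibrosis libraries. With library totals these counts were 1 higher and 1 lower, and 1 higher and 2 lower. Il33, which endothelial cells are known to make, had the directions of these called markers. The 4 called lower had log2 changes of -0.51 to -1.35, beside -3.62 for Il33. Without a call, Pecam1 had the other directions (0.29 and -0.59). Lyve1 (-0.10 and -0.34) and Cdh5 (-0.45 and -0.07) were lower in both comparisons, also without a call. The summed level of the 7 endothelial markers ranged from 326 to 358 CPM in schisandrin B, from 256 to 311 CPM in fibrosis and from 356 to 479 CPM in normal libraries. Of 4 tested cholangiocyte markers 3 were called higher in fibrosis than in normal libraries and 2 lower in schisandrin B than in fibrosis libraries, with sums of 12.7 to 28.7 CPM in schisandrin B, 51.7 to 63.4 CPM in fibrosis and 19.6 to 24.3 CPM in normal libraries. Of 9 macrophage markers 2 were called lower in fibrosis than in normal libraries (6 without fibrosis replicate 1, 0 by edgeR with library totals), with sums of 725 to 1030 CPM in schisandrin B, 774 to 1570 CPM in fibrosis and 1320 to 2030 CPM in normal libraries. Of 6 hepatocyte markers 4 were called lower in fibrosis than in normal libraries and 3 higher in schisandrin B than in fibrosis libraries, while library totals gave 1 higher and 3 lower, and 3 higher and 1 lower. For stellate cells and fibroblasts 2 of 7 markers were called higher and 2 lower in fibrosis than in normal libraries. In schisandrin B against fibrosis libraries 3 were higher and 2 lower. Library totals gave 3 and 2, and 2 and 2. Lrat had log2 changes of -3.45 and 3.87, and Acta2 1.54 and -1.86. Of 3 tested mast cell markers 3 were called lower in the first comparison and 2 higher in the second. The counts were 2 lower and 1 higher for 3 tested B and plasma cell markers, and 0 and 1 higher for 5 dendritic cell markers. With library totals the mast cell counts were 1 lower and 1 higher, and 0 dendritic cell markers were called. The part of these cell types in the changes of the members was not tested.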

How the data were processed

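The authors deposited raw counts per gene for 9 rat liver libraries, whole numbers without normalization. Aligner, counter, versions and strand use were not given in the sources used here. GRCm38 is named in the submitters' processing notes, a mouse build, while the strain is Wistar rat and the table holds rat symbols (1317 start with RGD, 54 with RT1), so genes are reported by symbol without positions, and overlapping or antisense genes could share reads. Mouse reference sequence was not used for these rat genes. Samples were grouped by source name and replicates numbered in deposit order.

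The tests ran in edgeR 4.0.16 under R 4.3.3: filterByExpr, TMM factors on library totals, robust quasi-likelihood fits to all 9 libraries with 1 mean per group, F tests, and Benjamini-Hochberg adjustment over the 14581 genes tested. The fit was tested on simulated data. A log2 fold change has as SE its size divided by the square root of F. Where a group held 1 to 3 counts pooled rates are compared as a ratio, with its exact 95% counting interval. Intervals and floors cover counting error only. For each comparison the 12 called members with the lowest adjusted p are named, with a fixed list of 16 main cytokines and receptors and the members called in opposite directions in the first 2 comparisons. Other members are given in brief. One gene of a pathway list is not reported here. For pathway lists the rule took up to 4 called genes per comparison, and genes beyond it were added after their values were seen. Members and lists were chosen with earlier results of these data known. Alternatives were other scalings, filters, DESeq2 1.42.0, limma 3.58.1 voom, 2-group fits, a stricter threshold and the omission of each library. Figures were drawn with matplotlib 3.10.9.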

Additional observations from a re-analysis of the deposited data

How the results depend on the processing

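No paired analysis was possible because the labels give no replicate numbers that link libraries across groups. The counts of members called were within 1.5 times of those in the report with DESeq2 size factors, upper-quartile factors, no filter, the DESeq2 Wald test and limma voom. With library totals alone the members called in fibrosis against normal libraries were 16 higher and 5 lower, those in schisandrin B against fibrosis libraries 7 higher, and those in schisandrin B against normal libraries 2 higher. With a mean of at least 1 CPM 7 were higher in schisandrin B against fibrosis and 0 in schisandrin B against normal libraries by edgeR. A fit on only the 2 groups gave 3 higher and 10 lower in schisandrin B against normal libraries. At an adjusted p under 0.01, 6 members were lower in fibrosis against normal, 6 higher in schisandrin B against fibrosis, and 0 higher and 2 lower in schisandrin B against normal libraries. Leaving out each library in turn gave, in schisandrin B against normal libraries, 0 to 1 members higher and 3 to 5 lower. The cause of these differences was not tested. Among the values of named members under the alternatives, 1214 kept their side of the threshold, 85 lost a call and 27 gained one, with 0 called values reversed. Depth limits the low-count members most: 19 of 110 had 0 counts, and another 39 did not pass the filter in the fit to all 9 libraries.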
